A study of Mus musculus with 12 samples.

Results

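The genes described here carry out transport between the endoplasmic reticulum (ER) and the Golgi apparatus, and include the subunits found only in the TRAPPIII tethering complex. They were taken by name from a fixed list of 57 symbols, and each symbol matched 1 of the 53801 gene records in the expression table. By role the list held 15 genes of the COPII coat and ER exit sites, 13 of the COPI coat and its ARF switch, 5 tethers and Golgi matrix proteins, 8 SNAREs and their Sec1/Munc18 partner, 12 cargo receptors and 4 TRAPPIII subunits. Of the 57 genes, 55 reached 1 FPKM in at least 3 of the 12 libraries and entered the tests, among 13078 genes in all. FPKM counts the fragments of a gene per kilobase of its transcripts and per M fragments mapped (M, mega). Copz2, a coat subunit, and Kdelr3, a retrieval receptor, lay between 0 and 0.355 FPKM in all libraries and were not tested.

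RNA was sequenced from RAW264.7, a macrophage-like line grown from a mouse tumour. Small interfering RNA (siRNA) was used to silence Trappc4, which encodes the TRAPP core subunit Synbindin. Cells with it are called silenced cells, and those with control siRNA are called control cells. Each kind was collected at 0 h, without lipopolysaccharide (LPS), or after 4 h with 100 ng/ml LPS, which activates macrophages through Toll-like receptor 4. Each of the 4 groups held 3 libraries, all from the same line. The labels do not say whether libraries of a group came from separate cultures or transfections, so the p-values rest on a spread between samples that may be technical only.

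Secretory and membrane proteins leave the ER in vesicles shaped by the COPII coat, which assembles at exit sites when the GTPase SAR1 is switched on. Tethers catch the vesicles at the Golgi, SNAREs fuse them, and the COPI coat, recruited by ARF GTPases, carries escaped ER residents and cargo receptors back. TRAPP complexes act on RAB GTPases along this route, and the TRAPPIII form shares its core, with Synbindin in it, with the other TRAPP form. In macrophages the route carries newly made cytokines and Toll-like receptors.

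The libraries differed in ways that touch several results. Trappc4, the silenced gene, was at 14.1, 13.1 and 12.5 FPKM in control and 4.35, 7.17 and 6.15 FPKM in silenced cells without LPS. After LPS it was at 13.8, 15.7 and 9.45 FPKM in control and 5.86, 7.71 and 8.26 FPKM in silenced cells. Every silenced library lay below every control library of its time, but the difference missed the threshold in limma, with log2 fold changes of -1.07 ± 0.19 (SE, adjusted p = 0.0558) and -0.74 ± 0.19 (SE, adjusted p = 0.12). Depth could only be estimated roughly, since few low FPKM values (4.64% to 10.2%) fell on whole steps of the size used. The estimates were between 7.36 and 17.6 M (mega) fragments and were highest in silenced cells after LPS, at 13.5 to 17.6 M. The share of summed FPKM from mitochondrially encoded genes was 17.1% to 18.7% in control and 15.3% to 16.8% in silenced cells without LPS, and 12.2% to 13.1% and 12.8% to 13.8% after LPS. The summed FPKM of 10 macrophage markers was 1670 to 1817 in control and 2313 to 2758 in silenced cells without LPS, and 1712 to 2058 and 2276 to 3007 after LPS. Most of that gap was Lyz2, at 567, 508 and 588 FPKM in control and 1340, 1344 and 958 FPKM in silenced cells without LPS. Without Lyz2 the sums were 1161 to 1250 and 1324 to 1414, and 1268 to 1555 and 1442 to 1791 after LPS. Silenced libraries lay above all control libraries for 2 of the 10 markers without LPS and 3 after it, and overlapped them for the rest. They lay above for 9.86% and 7.62% of all tested genes. Mertk, 1 of the 10 markers, was nearly absent, with group means of 0 to 0.058 FPKM. Markers of B, T and NK, neutrophil, fibroblast and epithelial cells each summed to at most 0.525 FPKM, and Ms4a1, Cd3d, Cd8a, Ncr1, Ly6g, Mpo, Dcn, Pdgfra, Cdh1, Krt8 and Krt18 were listed at 0 in every library. The part of depth, mitochondrial share and macrophage markers in the results below was not tested. In these bulk samples, fewer cells in a given state and less RNA per cell cannot be told apart.

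Most of the listed genes were well expressed. Their mean FPKM over the 12 libraries had a median of 15.3, against 6.63 over all genes tested, and 46 of the 57 lay above that value. Arf1, the GTPase that recruits COPI, was the highest at a mean of 174 FPKM, followed by the cargo receptor Tmed2 at 70.3 FPKM. The lowest tested genes were Sec16b, a scaffold of ER exit sites, at 2.13 FPKM and Gorasp1, a Golgi stacking protein, at 2.68 FPKM. FPKM is scaled to transcript length, so these levels can be set side by side between genes. Among alternative forms, Sar1b (30.1 FPKM) was above Sar1a (13.6 FPKM), Copg1 (14.3 FPKM) above Copg2 (11.3 FPKM), and Kdelr2 (34.0 FPKM) above Kdelr1 (20.2 FPKM), the order of the group means in each of the 4 groups. Copz1 was at 19.7 FPKM beside the near absence of Copz2. The coefficient of variation within a group had a median over the listed genes of 6.6% to 7.6%.

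A short motif known from the ER stress response recurred in the promoters of these genes, and the stretches that hold it are shown for that reason. Promoter windows (250 bases before to 50 after a start, 300 bases, RefSeq, build GRCm38.p6) were found for 51 of the 57 genes, 58 windows in all. Arcn1, Kdelr2, Lman1, Tmed2, Tmed7 and Trappc8 had none. The unfolded protein response element core TGACGTGG, which the ER stress factors XBP1 and ATF6 can bind, was searched on both strands. It was present in 11 of the 58 windows (19%), belonging to 10 genes, against 222 of 32851 windows in all (0.676%) and 94 of 10581 windows of tested genes (0.888%). By role it was in 5 of 13 COPI and ARF windows, 3 of 18 COPII windows, 2 of 10 SNARE windows, 1 of 8 cargo receptor windows, and no window of a tether or a TRAPPIII subunit (6 and 3 windows). The core shares its first 6 letters with the cyclic AMP response element TGACGTCA, and no window of the listed genes held both. These shares are a description and were given no test, since windows of 1 gene can overlap. The stretches around the match are printed 5′ to 3′ on the strand of the gene, with the core or its reverse complement CCACGTCA in capitals. They stand on GRCm38.p6 at chr1:157506741-157506770 (Sec16b, plus strand), chr3:123267459-123267488 (Sec24d, plus), chr12:59011993-59012022 (Sec23a, minus), chr7:114254690-114254719 (Copb1, minus), chr9:98563713-98563742 (Copb2, plus), chr11:59228228-59228257 (Arf1, minus), chr19:46152535-46152564 (Gbf1, plus), chr12:51377534-51377562 (Scfd1, plus), chr19:8741422-8741451 and chr19:8741452-8741473 (Stx5a, plus) and chr15:79516367-79516396 (Kdelr3, plus).
Sec16b: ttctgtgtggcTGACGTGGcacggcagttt
Sec24d: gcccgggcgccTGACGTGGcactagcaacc
Sec23a: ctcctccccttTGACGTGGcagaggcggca
Copb1: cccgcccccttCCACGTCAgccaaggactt
Copb2: tcccggaagttCCACGTCAgtgggttggcc
Arf1: gcggcaggcgcTGACGTGGctgccgtcagc
Gbf1: gaggctagttaCCACGTCAgtgagctgaca
Scfd1: gggaggtagggCCACGTCAtcttcgggct
Stx5a, first match: tggcgcagcagCCACGTCAccgagttagga
Stx5a, second match: gtacgtctaggTGACGTGGcgg
Kdelr3: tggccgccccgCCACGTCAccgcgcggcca

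The match began at most 44 bases before an annotated start, or lay just after it, and in Arf1 the same match lay 84 bases before a second start. Stx5a, a Golgi SNARE, was the one gene with 2 matches in a window. The shares of the other 8 motifs searched lay closer to those of all windows, but some of these motifs were also frequent. The NRF1 site was in 20.7% of the listed genes' windows, against 11% of tested genes' and 4.6% of all windows. The ETS site was in 17.2%, against 9.08% and 3.89%, and the E-box in 15.5%, against 10.5% and 7.15%. The core was in none of the 37 windows of other ER-Golgi genes. The cyclic AMP response element was in 3.45% of the listed genes' windows against 1.79% of all, the AP-1 site TGANTCA in 5.17% against 7.81%, the NF-kB site in none against 1.47%, and the interferon response element in 5.17% against 3.44%. The ER stress response element was in none of the 58 windows and in 0.119% of all. A match is a description of these letters and does not show that a factor was bound.

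**Figure D1:**
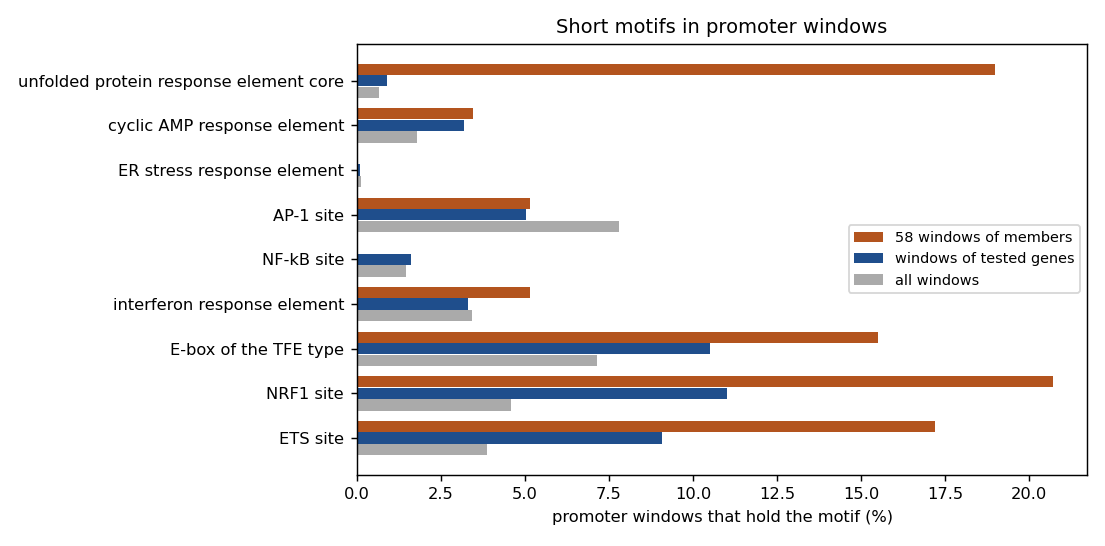
Share of 300-base promoter windows (x axis, %) that hold each of 9 motifs (y axis), for 58 windows of the listed genes (orange), windows of all tested genes (blue) and all windows (grey). The unfolded protein response element core stands at 19% in the listed genes against 0.888% and 0.676% in the others.

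On the deposited FPKM scale, LPS moved these genes in both directions in control cells, at shares near those of all tested genes, and almost only downward in silenced cells. Effects were tested with limma on log2(FPKM + 1), 3 against 3 libraries with a spread shared over the 4 groups, and a gene was called at a Benjamini-Hochberg adjusted p below 0.05 over all 13078 genes. Fold changes are on this log2 scale, which understates the change of low genes. In control cells 9 of the 55 tested genes rose and 18 fell (16.4% and 32.7%), where 15.3% and 32.9% of all tested genes did (48.2% called in all). In silenced cells 1 rose and 23 fell (1.82% and 41.8%), against a background of 13% and 35.5% (48.5% in all). The median log2 fold change was -0.12 in control cells and -0.22 in silenced cells, beside -0.17 and -0.21 over all tested genes. Between them, 1 gene rose in both kinds of cells (background 10.5%) and 15 fell in both (background 27.2%), and 20 of the 55 were called in neither.

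The split into higher and lower depended on the scaling of the libraries, since the median of all genes lay well below 0. Median-ratio scaling brought that median to 0.005 and 0.009, and the calls among the listed genes then became 19 higher and 9 lower in control cells (34.5% and 16.4%, background 23.7% and 22.8%). In silenced cells they were 16 higher and 8 lower (29.1% and 14.5%, background 22.4% and 22%). A further scaling gave each library a common sum over all genes except the mitochondrially encoded ones. With this common sum per library the counts were 4 and 25 in control (7.27% and 45.5%, background 12.2% and 40.2%) and 1 and 31 in silenced cells (1.82% and 56.4%, background 10.9% and 42.8%). With quantile normalization they were 9 and 16 (16.4% and 29.1%, background 19.2% and 25.7%) and 5 and 17 (9.09% and 30.9%, background 17.2% and 25.7%). In control cells 4 genes were called higher (Arf4, Copz1, Gosr2, Sec13) and 9 lower (Bet1, Gbf1, Golga5, Gorasp1, Sec16b, Sec24d, Trappc8, Trappc11, Trappc13) under all 4 scalings. In silenced cells these were Arf4 alone among the higher and 8 among the lower (Gbf1, Golga5, Gorasp1, Sec16b, Sec24d, Trappc8, Trappc11, Trappc13).

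**Figure D2:**
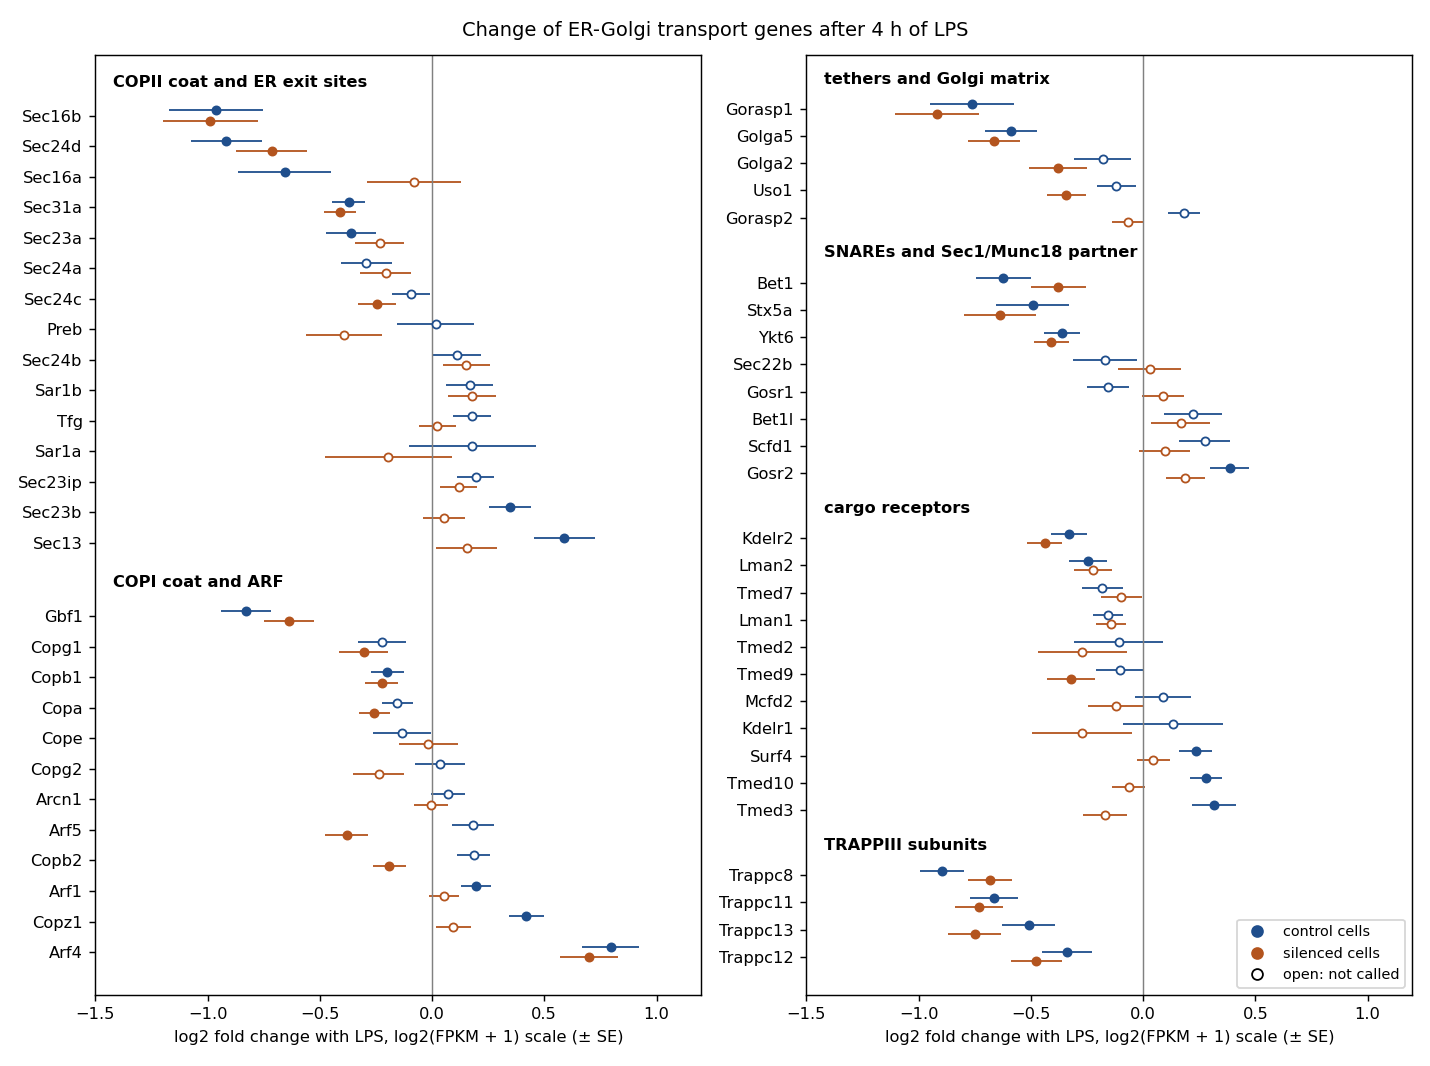
Log2 fold change after 4 h of LPS (x axis, log2(FPKM + 1) scale, bars ± SE) of the 55 tested genes, grouped by role, in control cells (blue) and silenced cells (orange), with open points for genes not called. All 4 TRAPPIII subunits lie left of 0 in both kinds of cells, and Arf4 lies farthest right, at 0.80 and 0.70.

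The 4 TRAPPIII subunits all fell after LPS, and did so in both kinds of cells, as did 27.2% of all tested genes. Their median log2 fold change was -0.59 in control and -0.71 in silenced cells, beside -0.17 and -0.21 over all tested genes. Trappc8, whose yeast counterpart gives the TRAPPIII complex its identity, was at 11.5, 11.4 and 11.9 FPKM in control cells without LPS and 5.53, 5.79 and 5.997 FPKM after LPS. Silenced cells went from 10.5, 10.4 and 11.5 FPKM to 7.26, 6.46 and 5.44 FPKM. The libraries before and after LPS did not overlap in either kind of cell, and the log2 fold changes were -0.90 ± 0.10 (SE, adjusted p = 1.81e-05) and -0.68 ± 0.10 (SE, adjusted p = 0.000131). Trappc11, a scaffold of the complex that is also tied to protein glycosylation (chromosome 8, 47490115 to 47533470, minus strand, GRCm38), stood at 13.1, 13.1 and 14.7 FPKM before and 8.28, 9.64 and 6.90 FPKM after LPS in control cells. The silenced cells had 15.2, 14.6 and 13.8 FPKM before and 8.65, 8.52 and 7.95 FPKM after. Again no library with LPS reached the lowest one without it, with changes of -0.67 ± 0.11 (SE, adjusted p = 0.000346) and -0.73 ± 0.11 (SE, adjusted p = 0.000166).

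Trappc13, a smaller subunit of the complex (chromosome 13, 104142149 to 104178469, minus strand), was at 11.8, 9.50 and 12.2 FPKM in control cells without LPS and fell to a narrow 7.56, 7.60 and 7.34 FPKM. The silenced libraries were at 12.8, 12.6 and 11.2 FPKM without LPS and 7.90, 6.998 and 5.78 FPKM with it. The groups were apart in both comparisons, and the changes were -0.51 ± 0.12 (SE, adjusted p = 0.00394) in control and -0.75 ± 0.12 (SE, adjusted p = 0.000284) in silenced cells. Trappc12, the fourth subunit, was the lowest of them, at 4.22, 4.26 and 4.91 FPKM before and 3.64, 3.38 and 2.95 FPKM after LPS in control cells. In silenced cells its values were 4.31, 4.61 and 5.01 FPKM and then 3.54, 2.66 and 3.01 FPKM. Its groups did not overlap, but its call was the least firm: -0.34 ± 0.11 (SE, adjusted p = 0.0267) in control and -0.47 ± 0.11 (SE, adjusted p = 0.00428) in silenced cells. In control cells the call was lost without replicate 3 of the control cells without LPS or replicate 2 or 3 of the control cells after LPS (log2 fold change -0.35 to -0.27, adjusted p between 0.0524 and 0.0952). Under median-ratio scaling and quantile normalization the gene stayed below 0 but was not called, at -0.17 and -0.07 in control and -0.26 and -0.19 in silenced cells. The other 3 subunits were called lower under all 4 scalings.

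**Figure D3:**
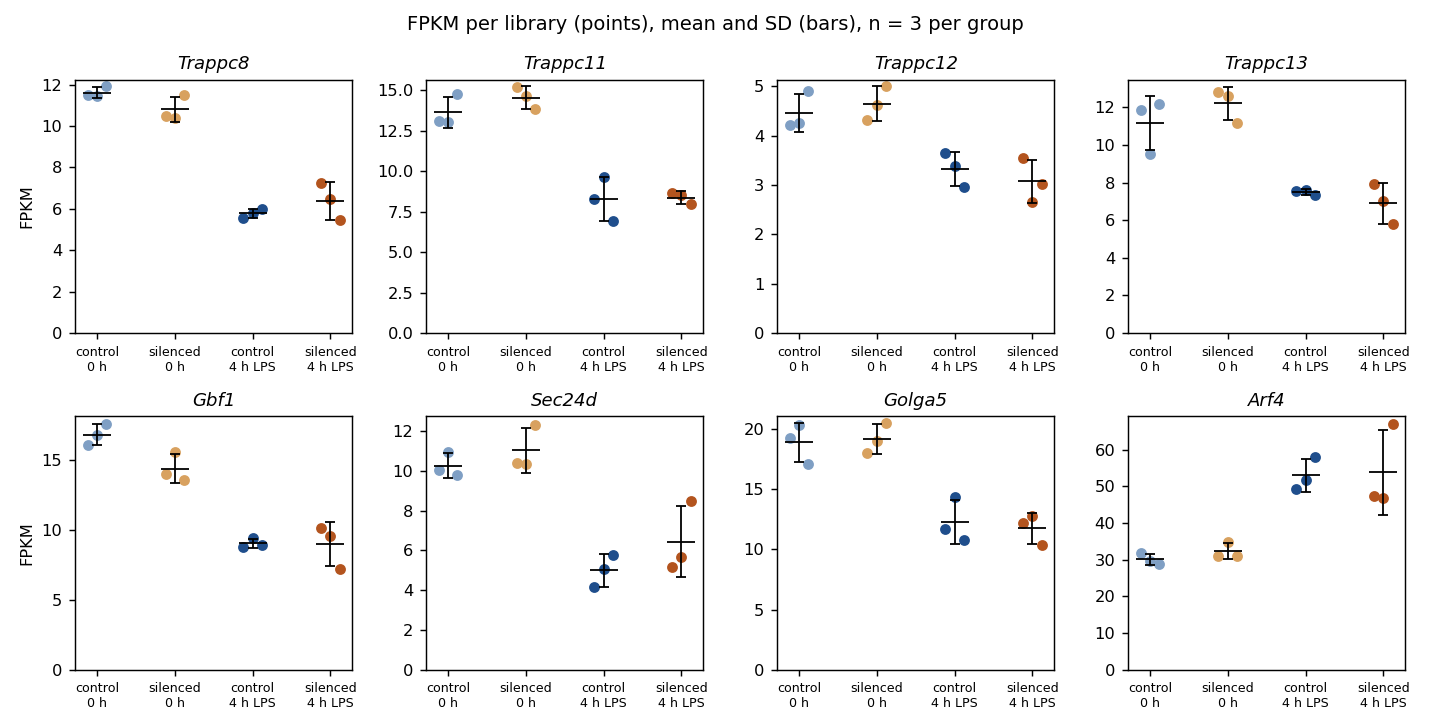
FPKM (y axes from 0) of the 4 TRAPPIII subunits and of Gbf1, Sec24d, Golga5 and Arf4 in each library (points) of the 4 groups, with mean and SD (bars, n = 3). The libraries after 4 h of LPS lie below those without LPS in 7 panels, and above them for Arf4, at 46.8 to 67.2 FPKM against 28.8 to 34.9.

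Other genes of the TRAPP complexes were the shared core, Trappc4 included, and the subunits of the other form. Their median log2 fold changes were -0.08 in control and -0.06 in silenced cells, beside -0.17 and -0.21 over all tested genes. Of 10 tested, 3 fell and none rose in control cells (background 32.9% and 15.3%). In silenced cells 1 fell and none rose (background 35.5% and 13%). Trappc10, found in the other TRAPP form, fell in both (-0.47 ± 0.11 SE, adjusted p = 0.00419 and -0.45 ± 0.11 SE, adjusted p = 0.00512). Under median-ratio scaling no gene of this group was called lower (background 22.8% in control and 22% in silenced cells). In silenced cells 2 were called higher (background 22.4%). With that scaling 3 of the 4 TRAPPIII subunits were still lower in both kinds of cells. No test set one list against the other.

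Within the COPII coat and its exit sites, genes were called in both directions in control cells. There 2 of 15 genes rose and 5 fell (background 15.3% and 32.9%). In silenced cells none rose and 4 fell (background 13% and 35.5%). Under median-ratio scaling 6 were higher and 2 lower in each kind of cell. The background for that scaling was 23.7% and 22.8% in control and 22.4% and 22% in silenced cells. Sec24d, a cargo-binding coat subunit (chromosome 3, 123267455 to 123365641, plus strand), was at 10.0, 10.9 and 9.77 FPKM without LPS and 4.14, 5.08 and 5.75 FPKM with LPS in control cells. In silenced cells it went from 10.4, 10.4 and 12.3 FPKM to 5.18, 5.66 and 8.47 FPKM. The highest library with LPS, replicate 3 of the silenced cells, was still under the lowest without LPS, and the changes were -0.92 ± 0.16 (SE, adjusted p = 0.000552) and -0.71 ± 0.16 (SE, adjusted p = 0.00278). Sec16b, one of the 2 exit site scaffolds, was at 3.69, 3.91 and 2.16 FPKM in control cells before LPS and 1.28, 1.40 and 0.792 FPKM after it. In silenced cells the values were 3.34, 3.06 and 2.70 FPKM before and 1.17, 1.47 and 0.563 FPKM after. Low levels and wide scatter did not bring the groups into contact, and the changes were -0.96 ± 0.21 (SE, adjusted p = 0.00276) and -0.99 ± 0.21 (SE, adjusted p = 0.00226). Both genes carry the core motif printed above.

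Sec31a, which forms the outer COPII cage, fell in both kinds of cells, by smaller steps. Its control libraries were at 18.4, 18.5 and 18.8 FPKM without and 13.6, 14.99 and 13.8 FPKM with LPS. The silenced libraries were at 17.0, 17.0 and 17.4 FPKM without and 13.5, 12.4 and 12.1 FPKM with LPS. No value was shared between times, and the changes were -0.37 ± 0.07 (SE, adjusted p = 0.00126) and -0.41 ± 0.07 (SE, adjusted p = 0.000617), though neither was called under median-ratio scaling (-0.17 and -0.15). Sec13, the other part of the outer cage and also a nuclear pore subunit, went the other way in control cells, from 41.1, 45.0 and 40.5 FPKM to 66.9, 77.4 and 50.4 FPKM, a change of 0.59 ± 0.14 (SE, adjusted p = 0.00378). The 3 LPS libraries were spread but all above the rest. In silenced cells Sec13 was at 44.5, 51.4 and 56.3 FPKM before and 56.8, 56.2 and 56.0 FPKM after LPS, and was not called (0.15 ± 0.14 SE, adjusted p = 0.375). The test of the difference between the 2 LPS effects did not call it either (-0.43 ± 0.19 SE, adjusted p = 0.426).

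Sec23b, an inner coat subunit, rose in control cells from 12.3, 11.7 and 12.6 FPKM to 15.8, 15.2 and 16.3 FPKM, by 0.35 ± 0.09 (SE, adjusted p = 0.0101). All LPS libraries lay above all others in control cells. With Trappc4 silenced it was at 14.3, 16.5 and 14.0 FPKM and 15.1, 14.0 and 17.5 FPKM, overlapping (0.05 ± 0.09 SE, adjusted p = 0.688). With a common sum per library its call in control cells was lost (0.24, adjusted p = 0.0568). Its paralog Sec23a fell in control cells, from 7.60, 9.29 and 7.31 FPKM to 5.48, 6.002 and 6.65 FPKM (-0.36 ± 0.11 SE, adjusted p = 0.0176). That call was lost without replicate 2 of the control cells without LPS or replicate 1 of the control cells after LPS (log2 fold change -0.30 to -0.27, adjusted p between 0.0699 and 0.0728), and also under median-ratio scaling and quantile normalization (-0.17 and -0.12). The silenced values, 6.49, 6.39 and 7.68 FPKM before and 5.44, 5.59 and 5.97 FPKM after LPS, gave -0.23 ± 0.11 (SE, adjusted p = 0.102).

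Sec16a, the main exit site scaffold, was at 13.9, 9.47 and 13.5 FPKM without and 7.28, 7.19 and 7.58 FPKM with LPS in control cells, a called drop of -0.66 ± 0.21 (SE, adjusted p = 0.0219). The call was lost without replicate 1 or 3 of the control cells without LPS or replicate 1 or 2 of the control cells after LPS (log2 fold change -0.65 to -0.56, adjusted p between 0.0527 and 0.0773), and under median-ratio scaling and quantile normalization. Silenced cells had 8.70, 9.99 and 8.59 FPKM and then 13.0, 7.0003 and 6.69 FPKM, with replicate 1 well above the other two after LPS (-0.08 ± 0.21 SE, adjusted p = 0.78). Sec24c, another cargo-binding subunit, was called lower in silenced cells at -0.25 ± 0.09 (SE, adjusted p = 0.0317) and was not called in control cells (-0.09 ± 0.09 SE, adjusted p = 0.395). Its call was lost without replicate 2 or 3 of the silenced cells without LPS or replicate 2 of the silenced cells after LPS (log2 fold change -0.26 to -0.18, adjusted p between 0.0581 and 0.132), and median-ratio scaling turned its sign (0.02). The remaining 7 COPII genes (Sec23ip, Sec24a, Sec24b, Sar1a, Sar1b, Preb and Tfg) were called in neither comparison, with log2 fold changes between -0.29 and 0.19 in control and -0.39 and 0.18 in silenced cells.

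Among the COPI coat and its ARF switch, Arf4 rose in both kinds of cells, the one listed gene to do so on the deposited FPKM scale and with a common sum per library. Under median-ratio scaling 15 listed genes were called higher in both, and with quantile normalization 4 (Arf4, Bet1l, Scfd1 and Sec23ip). Of 12 tested, 3 rose and 2 fell in control cells (background 15.3% and 32.9%). In silenced cells 1 rose and 6 fell (background 13% and 35.5%). Median-ratio scaling gave 6 and 1 in control (background 23.7% and 22.8%), and 4 and 1 in silenced cells (background 22.4% and 22%). Arf4, a Golgi GTPase (chromosome 14, 26638074 to 26665084, plus strand), was at 31.8, 29.6 and 28.8 FPKM in control cells without LPS and 49.2, 51.7 and 58.1 FPKM with it. The silenced libraries stood at 31.0, 34.9 and 31.2 FPKM without and 47.4, 46.8 and 67.2 FPKM with LPS, where replicate 3 was the highest. All LPS libraries were above all others, and the changes were 0.80 ± 0.13 (SE, adjusted p = 0.000354) and 0.70 ± 0.13 (SE, adjusted p = 0.000819). Of its exon bases, 17.7% overlap genes on the opposite strand (Arf4os and Pde12). The libraries were strand-specific per the labels, but the strand setting of the counting is not given in the sources used here, so reads of such partners may not be separable.

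Gbf1, the exchange factor that switches these ARF proteins on, fell in both kinds of cells. Gbf1 (chromosome 19, 46152509 to 46286510, plus strand) was at 16.1, 16.8 and 17.6 FPKM in control cells and 8.81, 9.41 and 8.94 FPKM after LPS. The silenced libraries had 14.0, 15.6 and 13.6 FPKM and 10.1, 9.61 and 7.18 FPKM. The groups did not overlap, which was a condition for showing the gene. The changes were -0.83 ± 0.11 (SE, adjusted p = 0.0001) and -0.64 ± 0.11 (SE, adjusted p = 0.00062), and both calls held under all 4 scalings. The GTPase and its activator thus had changes of opposite sign in each kind of cell. Gbf1 too has the core motif in a promoter window.

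Copz1, a small COPI subunit, rose in control cells from 16.6, 16.6 and 15.03 FPKM to 22.9, 22.0 and 20.6 FPKM (0.42 ± 0.08 SE, adjusted p = 0.000955), with no overlap. In silenced cells it was already at 20.4, 20.2 and 18.6 FPKM without LPS and at 22.3, 20.3 and 20.7 FPKM after it (0.09 ± 0.08 SE, adjusted p = 0.348). Arf1 was at 152, 153 and 139 FPKM and 165, 173 and 171 FPKM in control cells, called at 0.20 ± 0.07 (SE, adjusted p = 0.0341). The Arf1 call was lost without replicate 1 or 3 of the control cells without LPS or replicate 1, 2 or 3 of the control cells after LPS (log2 fold change 0.15 to 0.21, adjusted p between 0.053 and 0.115), and quantile normalization turned its sign (-0.06). Arf5, a further ARF, was at 20.9, 19.9 and 23.7 FPKM in silenced cells before and 16.5, 16.7 and 15.6 FPKM after LPS, a called drop of -0.38 ± 0.10 (SE, adjusted p = 0.00606). In control cells Arf5 was at 16.3, 20.4 and 20.0 FPKM and 21.5, 21.4 and 21.6 FPKM and was not called (0.18 ± 0.10 SE, adjusted p = 0.136), and 16.4% of its exon bases overlap Gcc1 on the opposite strand. Median-ratio scaling left the Arf5 drop uncalled (-0.12).

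The large COPI subunits changed little. Copb1 was called lower in both kinds of cells, at -0.20 ± 0.07 (SE, adjusted p = 0.0438) and -0.23 ± 0.07 (SE, adjusted p = 0.0259). Copa (-0.26 ± 0.07 SE, adjusted p = 0.00845), Copg1 (-0.30 ± 0.11 SE, adjusted p = 0.0358) and Copb2 (-0.19 ± 0.07 SE, adjusted p = 0.0487) were called lower in silenced cells. The Copa call held with any 1 library left out, while those of the other 3 did not. Copb1 lost its call in control cells without replicate 1, 2 or 3 of the control cells without LPS or replicate 1 or 2 of the control cells after LPS or replicate 3 of the silenced cells without LPS or replicate 1 or 2 of the silenced cells after LPS (log2 fold change -0.22 to -0.16, adjusted p between 0.0527 and 0.15), and in silenced cells without replicate 2 or 3 of the silenced cells without LPS or replicate 2 of the silenced cells after LPS (log2 fold change -0.22 to -0.18, adjusted p between 0.0569 and 0.102). Copg1 lost it without replicate 1, 2 or 3 of the silenced cells without LPS or replicate 2 or 3 of the silenced cells after LPS (log2 fold change -0.33 to -0.22, adjusted p between 0.0551 and 0.14). Copb2 lost it with any 1 library left out except replicate 3 of the control cells after LPS, with adjusted p of 0.0502 to 0.151. Under median-ratio scaling Copb1 (0.01 and 0.04), Copa (0.01) and Copb2 (0.07) turned above 0, and Copg1 was not called (-0.05, adjusted p = 0.712). Copg1 was not called with quantile normalization (-0.15, adjusted p = 0.237) or without a filter on low values (adjusted p = 0.0564) either. Arcn1, Cope and Copg2 were called in neither comparison.

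The tethers and Golgi matrix proteins fell or were not called. Of 5 tested, 2 fell in control cells and 4 in silenced cells (background 32.9% and 35.5%), and none rose (background 15.3% and 13%). Under median-ratio scaling 2 were lower and 1 higher in each (background 22.8% lower and 23.7% higher in control, 22% and 22.4% in silenced cells). Golga5, a coiled-coil golgin (chromosome 12, 102469135 to 102497907, plus strand), was at 19.2, 20.3 and 17.1 FPKM before and 11.7, 14.3 and 10.8 FPKM after LPS in control cells. Silenced libraries had 18.0, 19.0 and 20.5 FPKM before and 12.2, 12.7 and 10.3 FPKM after. The times did not overlap, and the changes were -0.59 ± 0.12 (SE, adjusted p = 0.00144) and -0.67 ± 0.12 (SE, adjusted p = 0.000593). Gorasp1, which stacks Golgi cisternae, was at 3.72, 2.83 and 4.53 FPKM and 1.73, 2.50 and 1.15 FPKM in control cells and 4.42, 3.24 and 3.57 FPKM and 1.60, 1.39 and 1.49 FPKM in silenced cells. It was lower in every LPS library, by -0.76 ± 0.19 (SE, adjusted p = 0.00542) and -0.92 ± 0.19 (SE, adjusted p = 0.00162), but 32.1% of its exon bases overlap Wdr48 on the opposite strand.

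Uso1, the long tether p115, was at 38.3, 39.2 and 35.2 FPKM and 33.0, 35.4 and 35.0 FPKM in control cells, not called (-0.12 ± 0.09 SE, adjusted p = 0.281). In silenced cells it was at 37.9, 40.3 and 42.8 FPKM and 29.6, 29.9 and 35.6 FPKM, a called drop of -0.34 ± 0.09 (SE, adjusted p = 0.00677). Its partner on Golgi membranes, Golga2 (GM130), was called lower in silenced cells as well (-0.38 ± 0.13 SE, adjusted p = 0.0281), but not without replicate 1 of the silenced cells without LPS or replicate 3 of the silenced cells after LPS (log2 fold change -0.28 to -0.26, adjusted p between 0.114 and 0.118). Neither Uso1 (-0.08) nor Golga2 (-0.14) was called under median-ratio scaling. Gorasp2, a second stacking protein, had changes of 0.18 ± 0.07 (SE, adjusted p = 0.0521) and -0.07 ± 0.07 (SE, adjusted p = 0.467).

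The SNAREs were called in both directions in control cells. Of 8 genes tested, 1 rose and 3 fell there (background 15.3% and 32.9%). In silenced cells none rose and 3 fell (background 13% and 35.5%). Median-ratio scaling gave 3 higher and 1 lower in control cells (background 23.7% and 22.8%). In silenced cells it gave 4 higher and none lower (background 22.4% and 22%). Gosr2, also called membrin, rose in control cells from 28.7, 30.9 and 28.8 FPKM to 43.1, 37.1 and 36.5 FPKM (0.39 ± 0.09 SE, adjusted p = 0.00321). All 3 LPS libraries were above the others. In silenced cells its values of 23.6, 27.7 and 25.2 FPKM before and 29.0, 30.4 and 28.0 FPKM after LPS gave 0.19 ± 0.09 (SE, adjusted p = 0.097). Bet1, which pairs with Gosr2 and Stx5a in the ER-to-Golgi fusion complex, fell from 4.51, 3.91 and 3.77 FPKM to 2.49, 2.22 and 2.15 FPKM in control cells (-0.62 ± 0.12 SE, adjusted p = 0.00145). Silenced cells gave 4.05, 3.77 and 4.03 FPKM and 2.51, 2.43 and 3.58 FPKM, called at -0.38 ± 0.12 (SE, adjusted p = 0.0241). That second call was lost without replicate 1 or 3 of the silenced cells without LPS or replicate 1 or 2 of the silenced cells after LPS (log2 fold change -0.37 to -0.30, adjusted p between 0.0606 and 0.0953), and under median-ratio scaling and quantile normalization.

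Stx5a, the syntaxin of the same complex, was at 3.93, 3.28 and 4.73 FPKM and 2.63, 2.30 and 2.63 FPKM in control cells and 3.12, 4.72 and 3.93 FPKM and 2.15, 1.65 and 2.69 FPKM in silenced cells. It was called lower in both (-0.49 ± 0.16 SE, adjusted p = 0.026 and -0.64 ± 0.16 SE, adjusted p = 0.00657). In control cells the call was lost without replicate 1 or 3 of the control cells without LPS or replicate 2 of the control cells after LPS (log2 fold change -0.49 to -0.38, adjusted p between 0.0583 and 0.0984), and neither call held under median-ratio scaling or quantile normalization. Ykt6, a SNARE held to membranes by lipid, fell from 20.99, 21.2 and 21.8 FPKM to 17.1, 16.6 and 15.6 FPKM in control cells and from 20.6, 20.1 and 18.4 FPKM to 13.5, 15.6 and 14.7 FPKM in silenced cells. The groups did not overlap, and the changes were -0.36 ± 0.08 (SE, adjusted p = 0.00276) and -0.41 ± 0.08 (SE, adjusted p = 0.00119). Median-ratio scaling left them at -0.16 and -0.15, not called. Sec22b, Gosr1, Bet1l and the Sec1/Munc18 partner Scfd1 were not called in either.

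Of the 11 cargo receptors tested, 3 rose and 2 fell in control cells (background 15.3% and 32.9%). In silenced cells none rose and 2 fell (background 13% and 35.5%). With a common sum per library none rose and 4 fell in control cells (background 12.2% and 40.2%). With median-ratio scaling 3 rose and none fell there (background 23.7% and 22.8%). Kdelr2, a receptor that returns ER residents, was at 39.7, 38.9 and 37.8 FPKM without and 32.3, 31.7 and 28.2 FPKM with LPS in control cells. In silenced cells it was at 38.1, 40.0 and 37.4 FPKM without and 25.7, 29.4 and 29.5 FPKM with LPS. It was lower in every LPS library (-0.33 ± 0.08 SE, adjusted p = 0.00515 and -0.44 ± 0.08 SE, adjusted p = 0.000767), and was not called under median-ratio scaling (-0.12 and -0.17). Its paralog Kdelr1 ran from 16.7 to 24.9 FPKM in control libraries and 13.4 to 26.9 FPKM in silenced libraries and was not called in either comparison.

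The p24 family, which sorts cargo into both kinds of vesicle, gave mixed values. Tmed10 rose in control cells from 41.9, 44.3 and 44.5 FPKM to 48.8, 56.8 and 54.1 FPKM (0.28 ± 0.07 SE, adjusted p = 0.00765), with no overlap. With Trappc4 silenced it stood at 51.1, 50.9 and 52.9 FPKM and 48.1, 48.1 and 51.9 FPKM (-0.06 ± 0.07 SE, adjusted p = 0.497). Tmed3 was at 6.92, 6.17 and 6.50 FPKM and 9.32, 7.76 and 8.11 FPKM in control cells (0.32 ± 0.10 SE, adjusted p = 0.0194). Its silenced libraries were at 9.30, 8.11 and 8.24 FPKM and 7.01, 7.20 and 8.31 FPKM (-0.17 ± 0.10 SE, adjusted p = 0.185). The Tmed3 call was lost without replicate 2 of the control cells without LPS or replicate 1 of the control cells after LPS (log2 fold change 0.25 to 0.28, adjusted p between 0.0637 and 0.0838). Tmed9 was called lower in silenced cells (-0.32 ± 0.11 SE, adjusted p = 0.0284), but not without replicate 1 or 2 of the silenced cells without LPS or replicate 1 or 3 of the silenced cells after LPS (log2 fold change -0.30 to -0.27, adjusted p between 0.0741 and 0.0974). Surf4, a receptor for soluble cargo, was called higher in control cells (0.23 ± 0.07 SE, adjusted p = 0.02), but not without replicate 2 of the control cells without LPS or replicate 2 of the control cells after LPS (log2 fold change 0.19 to 0.21, adjusted p between 0.0688 and 0.0761). Lman2, a lectin that carries glycoproteins, was called lower there (-0.25 ± 0.09 SE, adjusted p = 0.0335), but not without replicate 1, 2 or 3 of the control cells without LPS or replicate 1 of the control cells after LPS (log2 fold change -0.25 to -0.16, adjusted p between 0.0636 and 0.141). Tmed10, Tmed3 and Surf4 were not called with a common sum per library, nor Tmed10 and Surf4 with quantile normalization, and Lman2 and Tmed9 were not called under median-ratio scaling. Lman1, its cofactor Mcfd2, Tmed2, Tmed7 and Kdelr1 were called in neither.

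Silencing Trappc4 called none of the 55 genes, with or without LPS. The background was 0.214% of all tested genes without LPS and 0.719% after LPS in limma. At an unadjusted p under 0.05 there were 9 of the 55 without LPS (background 12%) and 6 after LPS (background 13%). Without LPS, silenced libraries lay above all control libraries for 9 genes and below for 5 (background 9.86% and 8.35%), and after LPS for 3 and 6 (background 7.62% and 11.3%). The median log2 fold change of the listed genes was 0.05 without and -0.06 after LPS, beside 0.01 and -0.03 over all tested genes. The 4 TRAPPIII subunits had changes between -0.10 and 0.12 without LPS and between -0.12 and 0.12 after it. Their 95% intervals reached from -0.31 (Trappc8) to 0.38 (Trappc13) without LPS.

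The 3 listed genes with the smallest p without LPS were Arf1, Copz1 and Tmed3, all higher in value in silenced cells. Arf1 was at 152, 153 and 139 FPKM in control and 191, 189 and 179 FPKM in silenced cells, without overlap, at 0.33 ± 0.07 (SE, adjusted p = 0.0883). After LPS the same order was seen, with 165, 173 and 171 FPKM in control and 189, 185 and 207 FPKM in silenced cells (0.19 ± 0.07 SE, adjusted p = 0.259). Copz1, with its values given above, differed by 0.28 ± 0.08 (SE, adjusted p = 0.206) without LPS and -0.05 ± 0.08 (SE, adjusted p = 0.86) after it. Tmed3 differed by 0.34 ± 0.10 (SE, adjusted p = 0.219) without LPS, where the groups did not overlap, and by -0.14 ± 0.10 (SE, adjusted p = 0.595) after it. Without LPS 9.86% of all tested genes were apart in this direction. These genes too were picked for the smallest p, so their lack of overlap adds no support.

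After LPS the smallest p belonged to Gosr2, Arf5 and Tfg, all lower in value in silenced cells. Gosr2 was at 43.1, 37.1 and 36.5 FPKM in control and 29.0, 30.4 and 28.0 FPKM in silenced cells, apart, at -0.40 ± 0.09 (SE, adjusted p = 0.0702). When only the 7620 genes with a mean of at least 5 FPKM were tested, Gosr2 was called (adjusted p = 0.0485), the one listed gene that any setting called for silencing. Arf5 was at 21.5, 21.4 and 21.6 FPKM in control and 16.5, 16.7 and 15.6 FPKM in silenced cells, also apart, at -0.38 ± 0.10 (SE, adjusted p = 0.105). Tfg, which helps gather COPII vesicles at the exit site, was at 33.7, 35.2 and 37.5 FPKM in control and 29.1, 28.8 and 29.7 FPKM in silenced cells (-0.27 ± 0.08 SE, adjusted p = 0.18). The 2 groups did not meet for any of these 3 genes, and 11.3% of all tested genes were apart in this direction. The 3 genes were picked for the smallest p, so groups that do not meet add no support.

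**Figure D4:**
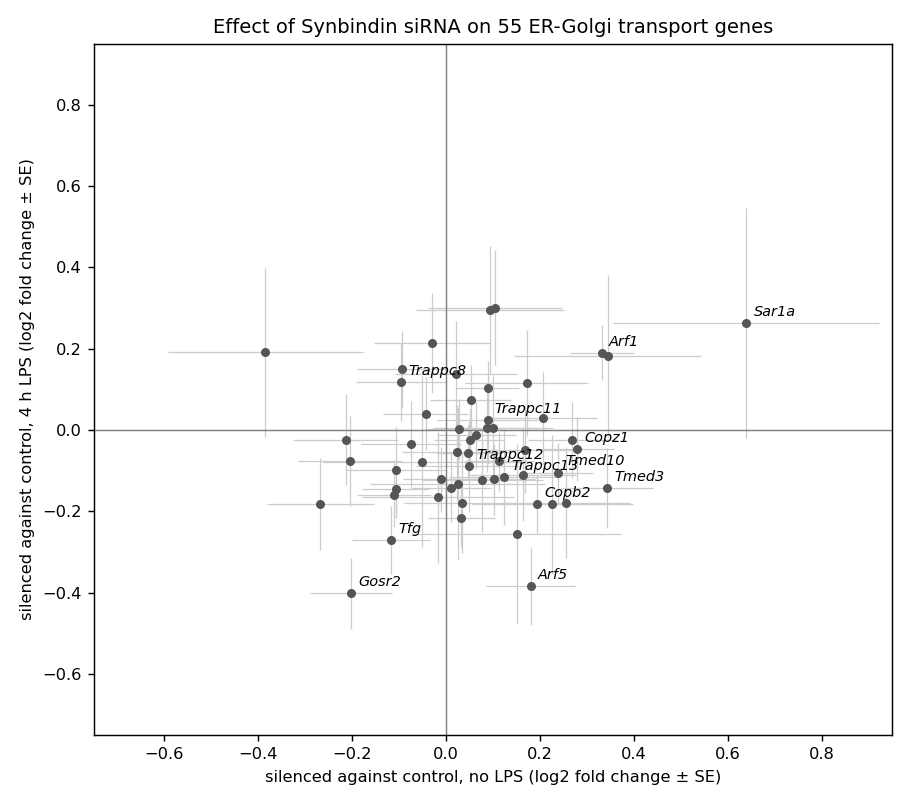
Log2 fold change of silenced against control cells without LPS (x axis) and after 4 h of LPS (y axis) for the 55 tested genes, on the log2(FPKM + 1) scale with SE bars. No gene was called on either axis, and Arf1 lies at 0.33 and 0.19, Gosr2 at -0.20 and -0.40.

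Whether the LPS effect differed between silenced and control cells was tested as an interaction, and none of the 55 genes was called (background 0.0612%). At an unadjusted p under 0.05 there were 8 (background 11.3%). The interaction value was above 0 for 15 of the 55 genes, with a median of -0.11, and for 5908 of the 13078 tested genes, with a median of -0.04. The 3 smallest p belonged to Arf5 at -0.56 ± 0.14 (SE, adjusted p = 0.212), Copb2 at -0.38 ± 0.10 (SE, adjusted p = 0.266) and Tmed3 at -0.48 ± 0.14 (SE, adjusted p = 0.286). Copb2, a COPI cage subunit, was at 27.2, 28.5 and 28.9 FPKM and 33.1, 33.8 and 29.8 FPKM in control cells before and after LPS. Silenced cells held 32.3, 31.6 and 33.4 FPKM and 29.4, 28.7 and 26.7 FPKM, so the order of the times was opposite in the 2 kinds of cells. For all 3 genes the interval of the interaction lay below 0 before adjustment (-0.86 to -0.27, -0.60 to -0.15 and -0.79 to -0.18). These genes were picked for the smallest p, so intervals that leave out 0 add no support. Genes called with LPS in 1 kind of cell and not the other, such as Sec13, Copz1, Gosr2 and Tmed10, are therefore not shown to respond differently. Both silencing comparisons and the interaction use the same control libraries as the LPS comparison.

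Among genes with alternative forms, the share of some within their set changed with LPS, and that of others was not called. Each call was lost with some library left out. Shares of summed FPKM within each set of paralogs were compared by exact 2-sided permutation of libraries within siRNA or within time (400 relabellings, smallest p 0.005), with 18 tests adjusted together. Sec24d made up 17.4%, 19.0% and 18.5% of the Sec24 set in control cells without LPS and 9.09%, 10.2% and 10.8% after it. In silenced cells its share was 19.9%, 18.7% and 21.5% and 10.7%, 12.6% and 17.1%. Every LPS library was lower than every library without LPS, and the mean difference was -7.41 percentage points (exact p = 0.005, the smallest possible, adjusted p = 0.03). Sec24b, a cargo-binding subunit closer in sequence to Sec24a, took up 28.4%, 33.9% and 28.1% before and 37.3%, 35.9% and 37.9% after LPS in control cells, and 29.3%, 31.3% and 26.8% before and 38.4%, 39.9% and 34.3% after in silenced cells. Its share rose by 7.65 points (exact p = 0.005, adjusted p = 0.03). Its own FPKM was not called on the deposited scale (0.11 ± 0.11 SE, adjusted p = 0.412 and 0.15 ± 0.11 SE, adjusted p = 0.263). Under median-ratio scaling Sec24b was called higher in control (0.32) and silenced cells (0.41). Shares within a set depend on each other, so this rise and the fall of Sec24d are not separate results. Sec24c held the largest share in every group, with group means of 40.6% to 43.4%, and was not called (0.50 points, exact p = 0.685, adjusted p = 0.881).

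Sec23b was the larger of the Sec23 pair in all 12 libraries. Its share was 61.8%, 55.7% and 63.4% in control cells without LPS and 74.2%, 71.7% and 71.0% with it. In silenced cells it was 68.7%, 72.1% and 64.6% and 73.5%, 71.5% and 74.5%. The LPS difference was 8.38 points (exact p = 0.01, adjusted p = 0.045), with overlap in silenced cells. Sec16b fell from a mean of 21.3% to 13.6% of the Sec16 pair in control and from 25.04% to 11.1% in silenced cells (-10.8 points, exact p = 0.015, adjusted p = 0.045). The Sec24a, Copg1, Kdelr1 and Sar1a shares were not called with LPS. Multiplying a library by 1 factor leaves its shares as they are, and the shares were not computed with quantile normalization. With 1 library left out the differences were -8.33 to -6.71 points for Sec24d and 7.06 to 8.59 points for Sec24b, each with an exact p of at most 0.01. Their adjusted p rose to 0.09 without replicate 1 or 3 of the silenced cells before LPS, and both calls held in the other 10 cases. Sec23b lost its call without replicate 1 or 3 of the silenced cells before LPS or replicate 3 after it (adjusted p up to 0.09). Sec16b kept its call only without replicate 3 of the control cells before LPS, replicate 1 of the control cells after LPS, or replicate 1 or 2 of the silenced cells after LPS (adjusted p up to 0.126 in the others).

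With silencing, 2 of the 9 shares were called. Sec24a held less of the Sec24 set in silenced cells, with a mean difference of -1.52 percentage points (exact p = 0.005, adjusted p = 0.03). Its group means were 10.7% in control and 8.73% in silenced cells without LPS, and 9.50% and 8.43% after it. Sar1a, one of the 2 forms of the GTPase that starts COPII assembly, was at 9.63, 11.3 and 9.73 FPKM in control and 12.5, 15.1 and 23.5 FPKM in silenced cells without LPS. After LPS it was at 11.2, 11.7 and 12.2 FPKM and 11.4, 10.1 and 24.6 FPKM. Replicate 3 of the silenced cells was the highest at both times, and its Sar1a share of the Sar1 pair was 48.5% and 42.5% beside 24.1% to 35.0% in all other libraries. The silencing difference in share was 8.95 points (exact p = 0.015, adjusted p = 0.045). Without the 2 libraries called replicate 3 of the silenced cells it was 3.70 points and was not called (exact p = 0.06, adjusted p = 0.154, smallest possible p 0.01). With any 1 library left out the Sar1a difference was 6.31 to 10.8 points with adjusted p up to 0.169, and it was called only without replicate 1 or 2 of the silenced cells after LPS. Sec24a differed by -1.46 points without those 2 libraries (exact p = 0.05, adjusted p = 0.154). Its call was also lost without replicate 1, 2 or 3 of the silenced cells before LPS or replicate 3 after it, with exact p of at most 0.04 and differences of -1.92 to -1.27 points.

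**Figure D5:**
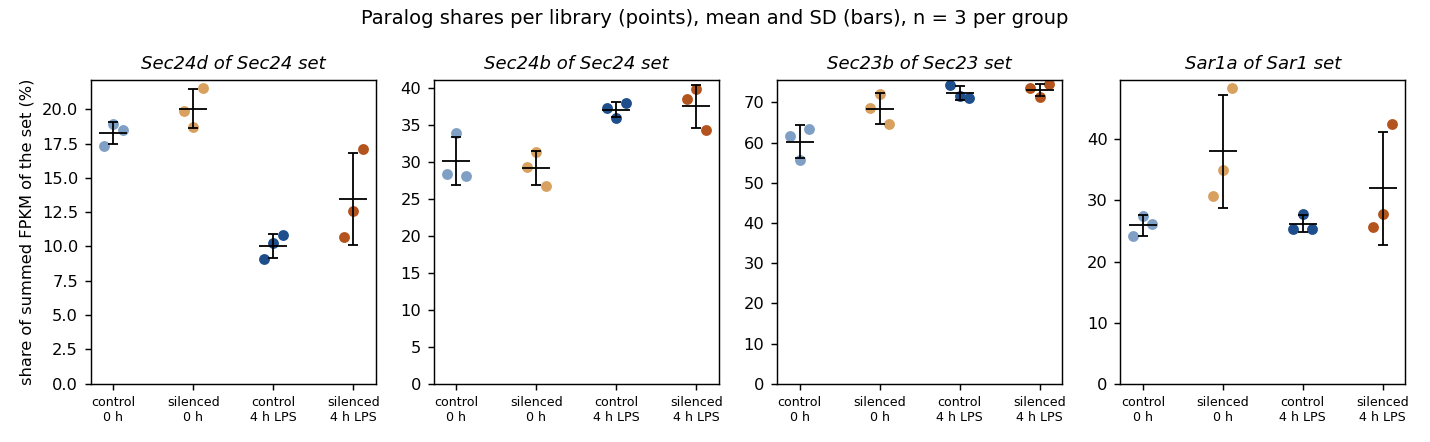
Share of summed FPKM within the paralog set (y axes, %, from 0) of Sec24d, Sec24b, Sec23b and Sar1a in each library (points) of the 4 groups, with mean and SD (bars, n = 3). Sec24d drops to 9.09% to 17.1% with LPS, and Sar1a stands highest in replicate 3 of the silenced cells, at 48.5% and 42.5%.

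Further genes of the route, not on the list, were also measured under LPS. Of 31 tested, 7 rose and 11 fell in control cells (background 15.3% and 32.9%) and 1 rose and 11 fell in silenced cells (background 13% and 35.5%), with medians of -0.25 and -0.24. With median-ratio scaling the counts were 10 and 7 (background 23.7% and 22.8%), and 6 and 7 (background 22.4% and 22%), with medians of -0.07 and -0.03. They were not tested against the listed genes. Zw10, part of the tether that receives COPI vesicles at the ER, was at 23.2, 21.4 and 21.1 FPKM before and 11.5, 14.3 and 9.84 FPKM after LPS in control cells and fell by 0.84 ± 0.18 (SE, adjusted p = 0.00233). In silenced cells its log2 fold change was -1.45 ± 0.18 (SE, adjusted p = 4.87e-05). Tmed8, a p24-like protein (-0.87 ± 0.16 SE, adjusted p = 0.000788 and -0.89 ± 0.16 SE, adjusted p = 0.000641), and Mia3, the exit site protein TANGO1 that loads bulky cargo (-0.69 ± 0.09 SE, adjusted p = 6.54e-05 and -0.64 ± 0.09 SE, adjusted p = 0.000101), also fell in both. Zw10, Tmed8 and Mia3 were called lower under all 4 scalings and with any 1 library left out. The highest changes in control cells were those of Yif1a (0.56 ± 0.12 SE, adjusted p = 0.00271), Tmed5 (0.53 ± 0.15 SE, adjusted p = 0.0126), Yipf5 (0.49 ± 0.08 SE, adjusted p = 0.000493) and Use1 (0.39 ± 0.10 SE, adjusted p = 0.00735). Tmed5 was not called without replicate 1 of the control cells after LPS (adjusted p = 0.0502).

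Factors known to switch on secretory pathway genes were also measured. Of 6 tested, 1 rose and 4 fell in control cells (background 15.3% and 32.9%). In silenced cells none rose and 3 fell (background 13% and 35.5%). Median-ratio scaling gave 1 and 3 in control (background 23.7% and 22.8%), and 2 and 3 in silenced cells (background 22.4% and 22%). Atf6, an ER stress sensor and transcription factor, was at 31.4, 29.4 and 37.3 FPKM without and 15.3, 16.8 and 16.2 FPKM with LPS in control cells. The silenced libraries held 29.7, 29.9 and 30.6 FPKM without and 16.6, 14.4 and 13.7 FPKM with LPS. It fell by 0.97 ± 0.10 (SE, adjusted p = 1.07e-05) and 0.97 ± 0.10 (SE, adjusted p = 1.05e-05) on the log2 scale, without overlap. Creb3l2, a relative of Atf6 that drives COPII genes in other tissues, fell in both (-1.38 ± 0.12 SE, adjusted p = 3.46e-06 and -1.63 ± 0.12 SE, adjusted p = 8.56e-07), as did Creb3l1 (-0.72 ± 0.14 SE, adjusted p = 0.00158 and -0.69 ± 0.14 SE, adjusted p = 0.00207). Creb3, of the same family, rose in control cells (0.59 ± 0.10 SE, adjusted p = 0.00039). Xbp1 was called lower in control cells (-0.94 ± 0.28 SE, adjusted p = 0.0147), where its libraries overlapped, and was not called without replicate 2 or 3 before LPS or replicate 1 after it, nor under 1 of the 4 scalings. These are transcript levels, and the activity of the factors was not measured.

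Of the 10 genes with the core motif, 9 were tested. With LPS 1 of them rose and 6 fell in control cells, and none rose and 6 fell in silenced cells, with medians of -0.36 and -0.23 (background 15.3% higher and 32.9% lower in control, 13% and 35.5% in silenced cells). Among the 40 tested genes that had a window without it, 8 rose and 10 fell in control and 1 rose and 15 fell in silenced cells, with medians of -0.04 and -0.20. Under median-ratio scaling the 9 genes split into 3 higher and 3 lower in control and 2 higher and 3 lower in silenced cells (background 23.7% and 22.8%, and 22.4% and 22%). The genes with a match thus included Gbf1, Sec24d and Sec16b, which fell under all 4 scalings, and also Arf1 and Scfd1, which did not. No test set the groups against each other.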

How the data were processed

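The authors deposited 1 table of gene FPKM for 12 RNA-seq libraries, in 53801 Ensembl records. HISAT2, StringTie and the mouse build GRCm38 are named in the submitters' processing notes, without versions or roles. How strand and multiply matching reads were handled, and with which annotation release, is not given in the sources used here. Libraries were strand-specific, per the labels' protocols. Symbols were matched to the table's name column, and 53620 records were found in the GENCODE M21 annotation of GRCm38. No read counts were used. Depth was estimated from the commonest step of low FPKM values, and 4.64% to 10.2% of them lay within 0.01 of a whole step. The values that set the step lie there by construction, so this share does not check the estimate, which is rough and gives no intervals.

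Genes that reached 1 FPKM in 3 or more libraries were tested with limma 3.58.1 (R 4.3.3) on log2(FPKM + 1), with 1 mean per group, all 12 libraries, an intensity trend and 2-sided p-values adjusted by Benjamini and Hochberg over 13078 genes, called below 0.05. The fit was also run on simulated data with independent noise and few changed genes, all in 1 group. That setting differs from the LPS comparisons, so it does not check their calls. The 5 comparisons were silencing without and after LPS, LPS in control and in silenced cells, and their interaction. Shares, markers and motifs were computed in Python 3.11.15. The motif definitions were written by hand, and those of 10 or more letters are named here without their letters. The members and lists were chosen with earlier results of these data known. Library values are given for all TRAPPIII subunits, the 6 highest and 6 lowest called genes per LPS comparison whose groups did not overlap and with a mean of at least 5 FPKM in a group, the 3 smallest p of each silencing or interaction comparison, and the paralog sets; library values of other genes were added after their values were seen. Alternatives were a pseudocount of 0.1, no or a stricter filter (mean FPKM of 5), 3 scalings and a fit without the other groups. Further ones were no intensity trend, a replicate block, each library left out, and calls of the main fit kept only at a change of at least 2-fold. Leaving libraries out of the shares was chosen after seeing the data.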

Additional observations from a re-analysis of the deposited data

How the results depend on the processing

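Of the listed genes called for LPS, 13 of 27 (control cells) and 9 of 24 (silenced cells) were called in every fit made, and 18 and 17 with any 1 library left out. The number called ranged from 21 to 27 and from 19 to 25 with 1 library left out, and stayed at 0 for silencing and the interaction. With a stricter filter 1 listed gene was called for silencing after LPS, among 133 of all 7620 genes then tested. When calls had also to reach a 2-fold change, 0 listed genes were left for LPS in either kind of cell. Of all 13078 tested genes, 1769 were then left in control and 1900 in silenced cells. The median of the listed genes for LPS was -0.24 with a common sum, 0.091 with median-ratio scaling and -0.055 with quantile normalization for control cells, and -0.33, 0.039 and -0.11 for silenced cells. The interaction median was -0.055 under median-ratio scaling and -0.061 under quantile normalization. Median-ratio scaling turned the sign of Copb1 in control cells (0.011) and of Sec24c (0.015), Copa (0.008), Copb1 (0.041) and Copb2 (0.074) in silenced cells, and quantile normalization that of Arf1 in control cells (-0.055). None of these was then called. Other genes, not called on the deposited scale, were called in opposite directions in silenced cells. Arf1 was called higher under median-ratio scaling (0.326) and lower under quantile normalization (-0.195). Gorasp2 was called lower with a common sum (-0.174) and higher under median-ratio scaling (0.195). The cause was not tested.

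Replicate numbers recur in all groups. The correlation of deviations from the group means was -0.03 to 0.19 over 18 same-numbered pairs, above 0 in 14 and above 0.1 in 3, and -0.12 to 0.13 over 36 pairs with different numbers, above 0 in 12 and above 0.1 in 1. The median was 0.048 over the same-numbered pairs and -0.046 over the others. Same-numbered libraries thus deviated together somewhat more often, and whether they share a source was not tested. The main fit and the permutations of shares treated the libraries as unpaired. With the replicate number as a block, 26 listed genes were called for LPS in control and 25 in silenced cells, and none for silencing or the interaction; the count over all genes for silencing without LPS went from 28 to 48. That count was 6 with only the groups compared, 10 without an intensity trend and 3 to 41 with 1 library left out. For silencing after LPS it was 94, with 0 for only the groups compared, 38 with quantile normalization, 50 without an intensity trend and 10 to 91 with 1 library left out. The interaction count was 8, with 5 at a pseudocount of 0.1, 4 without an intensity trend and 0 to 20 with 1 library left out. Only 3 libraries a group and FPKM without counts limit the precision: the largest SE among the named values belonged to Sar1a.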

Other observations

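Some other motifs were frequent in these promoter windows. The NRF1 site was in 20.7% of the listed genes' windows, against 11% of tested genes' and 4.6% of all windows. The ETS site CCGGAAGT was in 17.2%, against 9.08% and 3.89%, and the E-box CACGTG in 15.5%, against 10.5% and 7.15%. The median GC content was 57.8% in the listed genes' windows, 60.7% in those of tested genes and 52.7% in all. The unfolded protein response element core was in none of the 37 windows of the other ER-Golgi genes and in none of the 7 windows of the other TRAPP genes.

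A few listed genes scattered more than the rest between libraries of 1 group. The coefficient of variation of Sar1a was 52.2% in silenced cells after LPS and 33.9% in silenced cells without it. Sec16a reached 40.2% and Kdelr1 39.9% in silenced cells after LPS. Tmed2, the most abundant p24 receptor, was at 79.4, 47.2 and 74.5 FPKM in control cells without LPS and 71.1, 44.5 and 70.2 FPKM after it, so replicate 2 was lowest at both times. Tmed2 in silenced libraries was between 66.4 and 86.0 FPKM.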
